A study of Bos taurus with 27 samples.

Results

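The 2-oxoacid dehydrogenase complexes are the large mitochondrial assemblies that turn a 2-oxoacid into its acyl-CoA, and this account follows 10 of their subunit genes through fattening in the rumen epithelium (RE) of cattle. The members were taken by name (DHTKD1, OGDH, DLST, DLD, PDHA1, PDHB, DLAT, BCKDHA, BCKDHB and DBT), as every non-control probe of the array whose gene name was one of these, and 10 of 10 names were found, with 1 probe each, among 15008 different probes. DHTKD1 was singled out among them, selected on its measured signal, which rose at the middle stage, so its own levels and its contrast with the other 9 subunits are given as a description, without a test. The other 9 entered by name alone.

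RE was biopsied from the same 9 castrated and rumen-fistulated Japanese Black cattle at the ages of 14, 21 and 29 months, called the early, middle and late stages of fattening, and each of the 27 biopsies was hybridized to 1 one-color array. All animals were fed concentrate with rice straw at every stage, with a larger share of concentrate at the middle and late stages than at the early stage, and all passed through the stages in the same order. No animal was kept off the fattening diet, so stage, age and diet cannot be told apart. The middle against the early stage is called the first period, late against middle the second period, and late against early the total period. The study set out to follow RE transcription through these periods of long-term high-grain feeding.

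Each complex is built from an E1 subunit that decarboxylates the 2-oxoacid with the help of thiamine diphosphate, an E2 core that passes the acyl group to coenzyme A on a lipoyl arm, and an E3 subunit, dihydrolipoamide dehydrogenase (DLD), which all of the complexes share. PDHA1, PDHB and DLAT form the pyruvate dehydrogenase that feeds acetyl-CoA into the citric acid cycle, OGDH and DLST form the 2-oxoglutarate dehydrogenase of the cycle itself, and BCKDHA, BCKDHB and DBT form the dehydrogenase that breaks down the branched-chain amino acids. DHTKD1 is the E1 subunit that acts on 2-oxoadipate in the breakdown of lysine, hydroxylysine and tryptophan, and it works on the DLST core. The RE uses volatile fatty acids as fuel and makes ketone bodies from butyrate, both of which pass through mitochondrial acyl-CoA.

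Because each gene was read by a single probe, every value below is that of 1 stretch of its transcript, and the first 30 bases of each probe are shown 5′ to 3′, in lower case throughout, so that the measured stretch can be found. The whole probes lie at chr13:12294047-12294106 (DHTKD1, minus strand), chr4:77458462-77458500 (OGDH, minus strand, of which the interval holds 39 of the 60 bases), chr10:86551342-86551401 (DLST, plus strand), chr4:49257410-49257469 (DLD, plus strand), chrX:130883898-130883957 (PDHA1, minus strand), chr22:43466488-43466547 (PDHB, plus strand), chr15:22697886-22697945 (DLAT, plus strand), chr18:50838302-50838361 (BCKDHA, plus strand), chr9:20335070-20335129 (BCKDHB, plus strand) and chr3:43214044-43214103 (DBT, plus strand) of the UMD 3.1 build of the cattle genome, as the file headers and probe annotation give them. The design of the array placed the start of the PDHA1 probe at base 307 of its transcript and that of the DBT probe at base 629, while the other 8 started between base 1360 (PDHB) and base 3210 (DHTKD1). The probes for DLD, PDHB, BCKDHA and BCKDHB have a stop codon in every forward reading frame. Exon annotation of that build was not used here.
DHTKD1: gaaaagttcttgagcatgaatttattgctt
OGDH: agacttctcttctgtactgggcaaggtgta
DLST: attaagtttctatcttttgaacgtctgttc
DLD: tttgaaccaaggtgatcaggttatttgaaa
PDHA1: gcagaccgttcgccgaatggagttaaaagc
PDHB: gaacatggtgtaaatgtggcagagtcctga
DLAT: agttggagcccagcggcttgctgagtttag
BCKDHA: gaacttgactcagaattagaggtcagcacg
BCKDHB: acagtccccatgtaggcttataaatttcat
DBT: ctatctggaaaagcaaacaggagctatact

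Levels are log2 processed signals after subtraction of the median of the array, so 0 is the middle of an array, and a level of one probe is never set against that of another. The middle-stage arrays were dimmer: the median signal of an array lay between 8.05 and 28.1 there, against 34.5 to 47.5 (early) and 31.4 to 45.9 (late), and 48.5% to 71.5% of probes were called well above background at the middle stage against 68.8% to 78.1% and 68.4% to 73.7%. The dimmest array was that of animal 4 at the middle stage, with a median signal of 8.05, followed by an array at 13.6. There were 5 slides and 4 scan days. The early arrays of cattle 1 to 8 filled 1 slide, the early array of animal 9 shared a slide with the middle arrays of cattle 1 to 7, and the late arrays had slides and scan days of their own, so that for the second and total periods slide and stage cannot be told apart. Over all probes the median change was 0.32 in the first period, −0.27 in the second period and 0.03 in the total period, and changes are also given relative to it. Of the 12 markers of stratified epithelium, 10 were on the array and 8 of these, including KRT5 and KRT14, were well above background on all 27 arrays, whereas KRT4 was on none. In units of the array median, the summed level of the 4 red blood cell markers ran from 38.8 to 67.9 (early), 104 to 198 (middle) and 44.8 to 90.0 (late). That median was itself lower at the middle stage, and the sums before scaling were not compared. Among these markers HBA was well above background on every array, and HBB, ALAS2 and SLC4A1 each on at most 3 arrays of a stage. Of 7 smooth muscle markers, 4 were higher and 0 lower in the first period, where 45.3% and 21.3% of all probes were, and 6 were lower in the second, where 44.6% of all probes were. Of the 10 epithelial markers 2 were higher and 5 lower in the first period, and 2 and 2 in the second. KRT5 was at −0.56 and 0.11, KRT14 at −1.12 and 0.05 and PPL at −1.52 and 1.49. DSG3 went the other way, at 0.45 and −0.43. TP63 (0.11 and −0.11), PKP1 (0.18 and 0.21) and EVPL (0.05 and 0.23) were called in neither period. The part of the dim arrays, of the slides and of these markers in the results that follow was not tested, except where a value is given.

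DHTKD1 had its highest signal at the middle stage and its lowest at the late stage in every animal. At the early stage its level ranged from 3.68 to 4.29 with a median of 3.90. At the middle stage it ranged from 4.87 to 7.11 with a median of 5.69. At the late stage it ranged from 1.56 to 2.61 with a median of 1.83. The 3 ranges did not overlap, and within each stage the highest values belonged to animal 1 (early), animal 4 (middle) and animal 9 (late). The mean level was thus 3.90 ± 0.17 (SD, n = 9), 5.71 ± 0.64 and 1.92 ± 0.33, and the probe was well above background on all 27 arrays.

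Within animals, DHTKD1 changed by 1.81 ± 0.68 (SD, n = 9) on the log2 scale in the first period, a 3.51-fold difference, with 9 of 9 cattle higher and single animals between 1.17 and 3.43. In the second period it fell by 3.79 ± 0.56, which is 13.9-fold, with 9 of 9 cattle lower. The late level was below the early level in 9 of 9 cattle as well, by 1.98 ± 0.34. Relative to the median of all probes the changes were 1.49, −3.52 and −2.02. Over all probes, 6.24% were higher in the first period with no overlap between the stages, 10.4% lower in the second period and 2.49% lower in the total period. Since DHTKD1 was picked for this course, nothing is read from those shares.

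A smaller rise was present before any scaling of the arrays. Then the processed signal of DHTKD1 was 540 to 691 in the early, 703 to 1114 in the middle and 112 to 260 in the late biopsies, and these ranges did not overlap either, although the middle arrays were the dimmest. The median signal was 576 at the early and 887 at the middle stage, and animal 9 went from 691 to 703. The size of the scaled rise was thus in part one relative to the array median, which was lower at the middle stage. Without animal 4 the mean change in the first period was 1.61. On the slide that held the early array of animal 9 with 7 middle arrays, the difference was 1.85, and it was 1.78 with slide as a fixed block and 1.81 among cattle 1 to 7, whose early and middle arrays were scanned on the same day. With the normexp background correction, an alternative way of subtracting background, the changes were 1.27 in the first, −2.71 in the second and −1.44 in the total period.

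**Figure D1:**
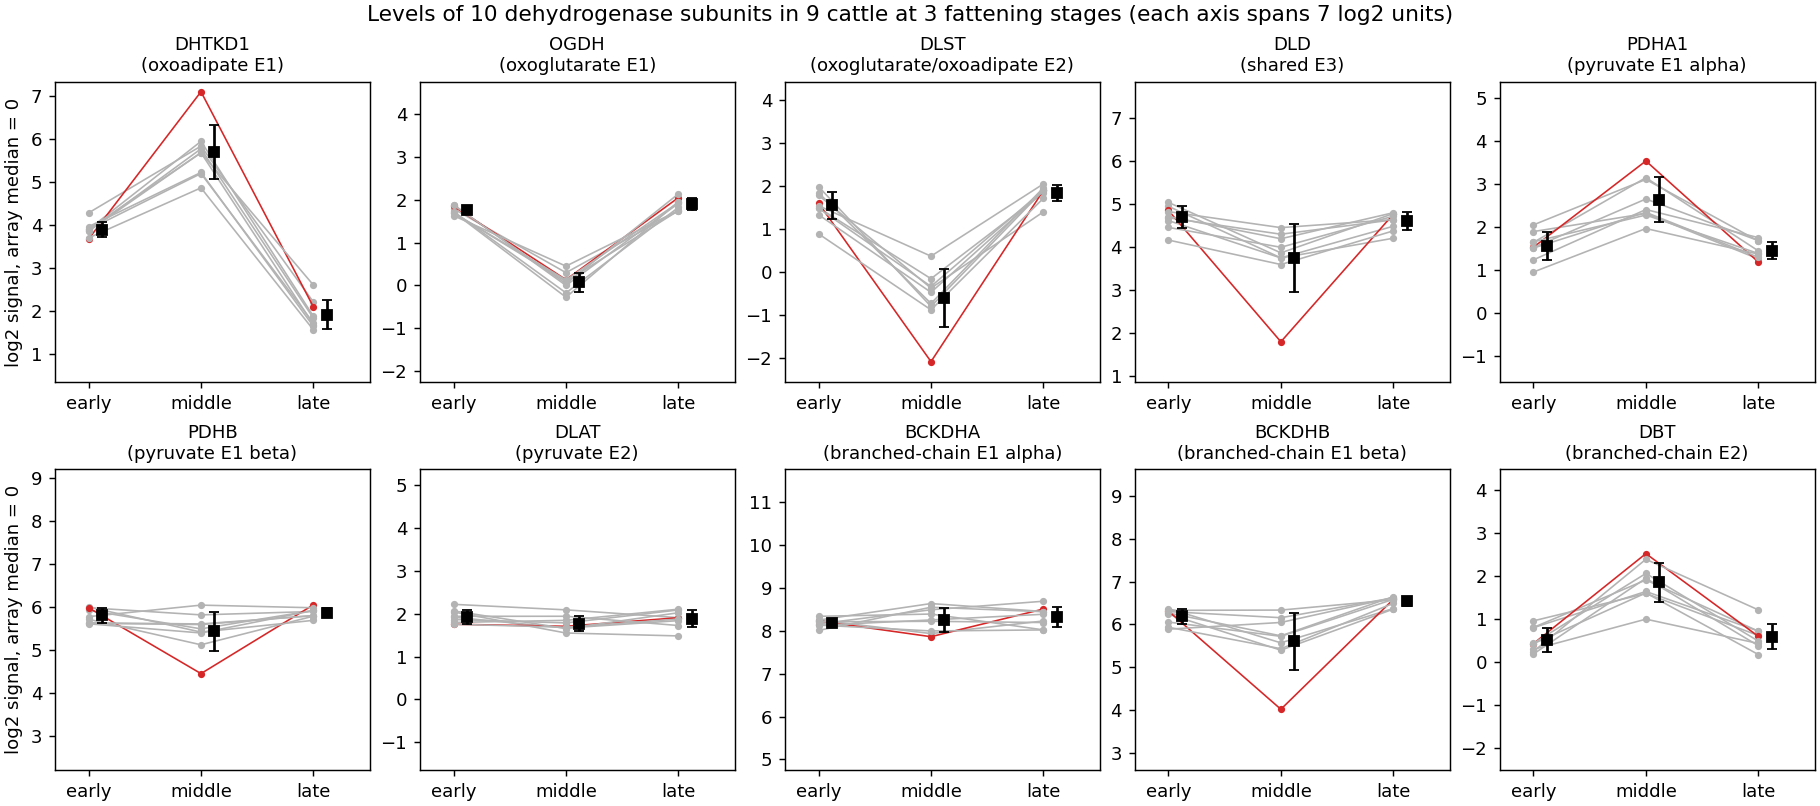
Log2 signal, relative to the array median, of the 10 subunits at the early, middle and late stages. Lines join the 3 biopsies of an animal (animal 4, with the dimmest middle array, in red), squares with bars are the mean ± SD of 9 cattle, and all vertical axes span the same number of log2 units; DHTKD1 peaks at 5.71 at the middle stage, OGDH and DLST dip to 0.08 and −0.61, and BCKDHA stays between 8.19 and 8.32.

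OGDH, the E1 subunit of the 2-oxoglutarate dehydrogenase and the closest counterpart of DHTKD1, ran the opposite way. Its level was 1.63 to 1.88 (median 1.72) at the early stage, −0.28 to 0.45 (median 0.09) at the middle stage and 1.74 to 2.13 (median 1.91) at the late stage. The middle stage lay below both others in every animal with no overlap. Before scaling, its signal was 119 to 155 (early), 8.83 to 25.1 (middle) and 115 to 158 (late), so the middle values were low, though well above background on every array. The log2 fold change was −1.68 (SE 0.10, adjusted P = 9.85e-10, limma with Benjamini-Hochberg adjustment over all probes) in the first period and 1.82 (SE 0.10, adjusted P = 5.84e-11) in the second. The late level differed from the early one by 0.13 (adjusted P = 0.386; 95% confidence interval −0.07 to 0.34).

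DLST, the E2 core on which both OGDH and DHTKD1 work, moved as OGDH did. It was 0.89 to 1.98 (median 1.54) at the early stage, −2.09 to 0.36 (median −0.48) at the middle stage and 1.40 to 2.05 (median 1.90) at the late stage. Again the middle stage did not overlap with either of the others, and the lowest value was that of animal 4, the only array on which the probe was not well above background. Before scaling, the signal of DLST was 82.3 to 148 (early), 1.89 to 21.8 (middle) and 91.2 to 177 (late), so its middle values were low too. In the fit it changed by −2.16 (SE 0.20, adjusted P = 1.25e-07) in the first period and 2.45 (SE 0.20, adjusted P = 8.45e-09) in the second, and 0.29 (adjusted P = 0.35) in the total period. Within animals the first-period change of OGDH was 0.48 ± 0.70 (SD, n = 9) above that of DLST on average, above it in 6 of 9 cattle and below it in 3. In the second period OGDH rose by less than DLST in 9 of 9 cattle (−0.64 ± 0.59). These differences between the 2 subunits were not tested.

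DLD, the E3 subunit of all of the complexes, was lower at the middle stage by a smaller amount. Its level was 4.17 to 5.04 (median 4.71) at the early stage, 1.80 to 4.45 (median 3.87) at the middle stage and 4.21 to 4.80 (median 4.64) at the late stage. The middle stage overlapped with both others, and the value of 1.80, from animal 4, lay well below the next, 3.60. Before scaling, the signal of DLD was 799 to 1268 (early), 28.0 to 432 (middle) and 730 to 1282 (late), with the middle stage below the others throughout. The log2 fold change was −0.96 (SE 0.22, adjusted P = 0.00106, 9 of 9 cattle lower) in the first period and 0.86 (SE 0.22, adjusted P = 0.00206, 9 of 9 cattle higher) in the second. Without animal 4 the first-period change was −0.69. Its calls were lost with slide as a random block at changes of similar size, −0.85 (adjusted P = 0.0602) in the first period and 0.81 (adjusted P = 0.097) in the second, and with slide as a fixed block the first-period change was −0.35 (adjusted P = 0.86).

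The changes of OGDH and DLST were smaller with normexp, at −0.84 and −0.81 in the first period and 0.98 and 1.05 in the second, and remained past the threshold. With slide as a fixed block in the first period, OGDH was still called (−1.32, adjusted P = 0.0334) and DLST was not (−1.61, adjusted P = 0.215). That fit could tell stage from slide only through cattle 8 and 9. Their middle arrays shared a slide, and their early arrays lay on different slides. The median SE over probes was raised from 0.188 to 0.67 by this block.

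The subunits of the pyruvate dehydrogenase did not share a course. PDHA1, the alpha chain of E1 that carries the phosphorylation sites, was higher at the middle stage. Its level was 0.95 to 2.04 (median 1.52) at the early stage, 1.96 to 3.53 (median 2.40) at the middle stage and 1.18 to 1.75 (median 1.38) at the late stage. The middle stage overlapped slightly with the early stage and not with the late stage. The fitted change was 1.09 (SE 0.16, adjusted P = 1.65e-05, 9 of 9 cattle higher) in the first period, −1.19 (SE 0.16, adjusted P = 3.3e-06, 9 of 9 cattle lower) in the second and −0.10 (adjusted P = 0.718) in the total period. Before scaling, its signal overlapped at all stages, at 85.8 to 142, 71.8 to 145 and 75 to 144, and after normexp the first-period change was 0.32 (adjusted P = 0.0422). Its rise was thus one relative to the array median, which was lower at the middle stage.

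PDHB, the beta chain that pairs with PDHA1 in E1, was slightly lower at the middle stage relative to the array median. Its level was 5.61 to 6.00 (median 5.77) at the early stage, 4.44 to 6.04 (median 5.49) at the middle stage and 5.69 to 6.05 (median 5.89) at the late stage. The stages overlapped. The log2 fold change of −0.37 (SE 0.15, adjusted P = 0.0337) in the first period lost its call under 7 of 14 other ways of processing and in 4 of 9 fits with an animal left out, with −0.22 and adjusted P = 0.0726 without animal 4, and that of 0.44 (SE 0.15, adjusted P = 0.0126) in the second under 5 of 11.

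DLAT, the E2 core of the pyruvate complex, stayed between 1.48 and 2.22 on all 27 arrays, with stage means of 1.93, 1.77 and 1.88. Before scaling, its signal was 140 to 182 (early), 26.3 to 101 (middle) and 110 to 176 (late). It was thus steady only relative to the array median, which was lower at the middle stage. Its log2 fold changes were −0.16 (adjusted P = 0.163; interval −0.37 to 0.05) and 0.11 (adjusted P = 0.307; interval −0.09 to 0.32), which did not pass the test, although with normexp they did, at −0.30 (adjusted P = 0.0147) and 0.37 (adjusted P = 0.00368). As a description, the first-period change of PDHA1 was above that of its partner PDHB in 9 of 9 cattle, by 1.45 ± 0.89 (SD), and in the second period below it in 9 of 9, by −1.63 ± 0.94.

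The subunits of the branched-chain complex did not share a course either. BCKDHA, the alpha chain of its E1, lay between 7.86 and 8.69 on all 27 arrays, with stage means of 8.19, 8.26 and 8.32. Its log2 fold changes were 0.07 (adjusted P = 0.597; interval −0.17 to 0.31) in the first period and 0.07 (adjusted P = 0.604; interval −0.17 to 0.30) in the second. Before scaling, its signal was 9858.5 to 12910.8 (early), 1871.92 to 7184.7 (middle) and 9191.38 to 15335.6 (late). Its steadiness was thus one relative to the array median, which was lower at the middle stage. With normexp the first-period change was −0.48 (adjusted P = 0.155) and the second was called, at 0.90 (adjusted P = 0.00967). Which part of that setting made the difference was not tested.

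BCKDHB, the beta chain of that E1, was 5.89 to 6.37 (median 6.27) at the early stage, 4.02 to 6.34 (median 5.72) at the middle stage and 6.36 to 6.65 (median 6.59) at the late stage. The middle stage overlapped with the early one and lay below the late one throughout. Before scaling, the signal was 2661 to 3416 (early), 131 to 1383 (middle) and 2935 to 4414 (late), and the middle stage lay below both others. The log2 fold change was −0.59 (SE 0.19, adjusted P = 0.0109, 7 of 9 cattle lower) in the first period and 0.94 (SE 0.19, adjusted P = 2.22e-04, 9 of 9 cattle higher) in the second. Without animal 4 the first-period change was −0.37, still past the threshold, and with slide as a random block the first-period call was lost (−0.44, adjusted P = 0.215).

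DBT, the E2 core of the branched-chain complex, moved with PDHA1 and DHTKD1. Its level was 0.19 to 0.96 (median 0.43) at the early stage, 1.00 to 2.53 (median 1.91) at the middle stage and 0.18 to 1.22 (median 0.60) at the late stage. The early and middle stages did not overlap, and the highest late value, that of animal 9, reached into the middle range. The estimate was 1.35 (SE 0.16, adjusted P = 1.5e-06) in the first period, −1.26 (SE 0.16, adjusted P = 1.38e-06) in the second and 0.08 (adjusted P = 0.775) in the total period. Before scaling its signal was 43.5 to 70.5, 46.4 to 73.8 and 40.9 to 99.3 at the 3 stages, with complete overlap, and after normexp the changes were 0.39 (adjusted P = 2.61e-04) and −0.33 (adjusted P = 4.43e-04). Against its own E1 beta chain the contrast ran through all cattle: the change of BCKDHB minus that of DBT was −1.93 ± 0.96 in the first period and 2.20 ± 0.88 in the second, in 9 of 9 cattle each way.

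Of the 9 subunits other than DHTKD1, then, 2 were called higher (PDHA1 and DBT) and 5 lower (OGDH, DLST, DLD, PDHB and BCKDHB) in the first period, where 66.5% of all 15008 probes were called, 45.3% higher and 21.3% lower. In the second period the same 5 were called higher and the same 2 lower, where 71.5% of all probes were called, 27% higher and 44.6% lower. With stages this different over the whole array, a call by itself does not set a subunit apart. The median change of the 9 was −0.37 in the first period and 0.44 in the second, beside all-probe medians of 0.32 and −0.27, and 7 of 9 lay below the all-probe median in the first period and 2 of 9 in the second. OGDH and DLST (lower) and DBT (higher) had no overlap between the early and middle stages, as had 13% of all probes, 6.77% lower and 6.24% higher, and OGDH, DLST and BCKDHB (higher) and PDHA1 (lower) none between middle and late, as had 20.7%, 10.3% higher and 10.4% lower. With slide as a fixed block, 1 subunit was called in the first period (OGDH), and on the shared slide alone, with its single early array, 0 were, where 7 of all 15008 probes were called. Among cattle 1 to 7 on the first scan day, 2 subunits were higher and 4 lower, where 8593 of all 15008 probes were called.

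**Figure D2:**
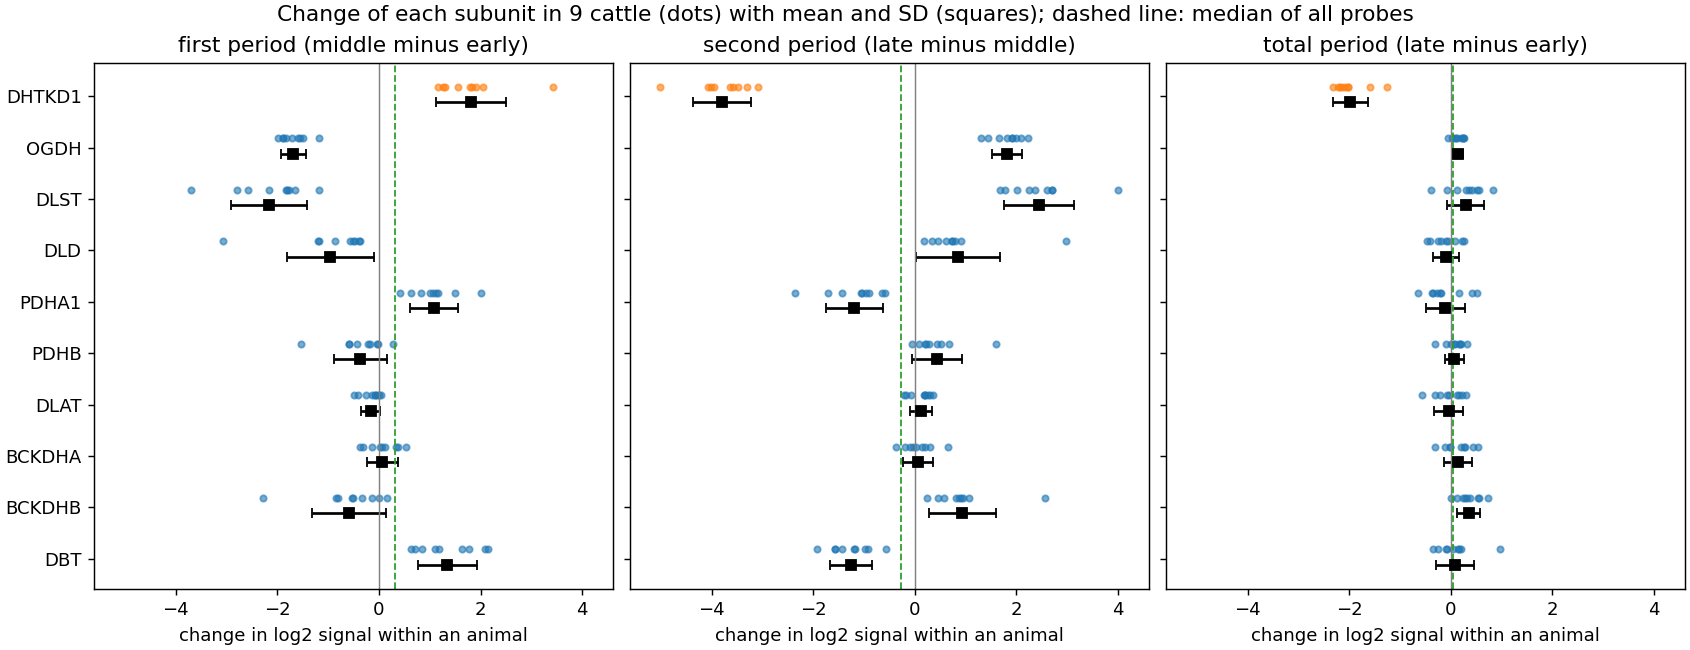
Change in log2 signal within each of 9 cattle (dots) for every subunit in the first, second and total periods, with squares and bars for the mean ± SD and a dashed line for the median change of all probes (0.32, −0.27 and 0.03). DHTKD1 (orange) is the highest in the first period, with a mean of 1.81, and the lowest in the second and total periods, with means of −3.79 and −1.98, while the other 9 return to between −0.10 and 0.35 in the total period.

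In the total period 0 of the 9 subunits were called by limma, where 20.1% of all probes were, 11.2% higher and 8.93% lower, and 0 of 9 passed at an unadjusted P below 0.05. Their changes ran from −0.10 (PDHA1) to 0.35 (BCKDHB), with a median of 0.08. None of the 9 had early and late levels without overlap, as 6.55% of all probes had, 4.06% higher and 2.49% lower. BCKDHB was higher at the late than at the early stage in 9 of 9 cattle (interval −0.04 to 0.75, adjusted P = 0.208). The paired test of the study's methods, with Benjamini-Hochberg adjustment, called 2 of them higher, OGDH (adjusted P = 0.0267) and BCKDHB (adjusted P = 0.0107). That test called 4526 of all 15008 probes in either direction, so these calls alone do not set the 2 subunits apart. DHTKD1, by contrast, ended 3.95-fold below its early level.

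Set against the other subunits of the same animal, which frees the contrast from the scaling of the arrays, DHTKD1 changed by 2.16 ± 1.11 (SD, n = 9) more than the median of the other 9 in the first period. The difference ranged from 1.33 in animal 5 to 4.97 in animal 4, and was 1.81 on average without animal 4. DHTKD1 was the highest of the 10 in 8 of 9 cattle, and in animal 9 DBT alone was above it. In the second period the difference was −4.27 ± 0.92, and DHTKD1 was the lowest of the 10 in 9 of 9 cattle. In the total period the difference was −2.09 ± 0.30, again with DHTKD1 the lowest in 9 of 9 cattle. Against its near relative OGDH the first-period difference was 3.49 ± 0.71, against its E2 core DLST 3.97 ± 1.37 and against DLD 2.77 ± 1.49, in 9 of 9 cattle each. These differences were what DHTKD1 was chosen for and carry no test.

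**Figure D3:**
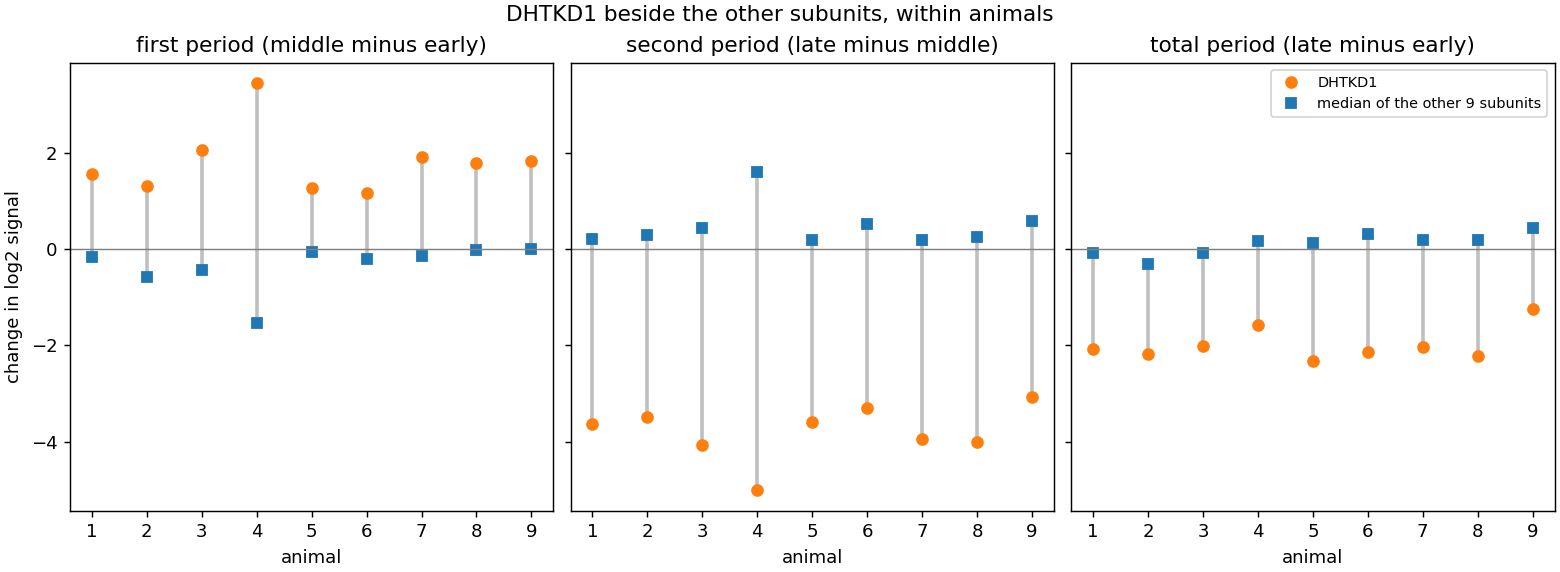
Change in log2 signal of DHTKD1 (circles) and median change of the other 9 subunits (squares) in each of 9 cattle, joined by a grey bar. In the first period the circle lies above the square in 9 of 9 cattle, by 1.33 to 4.97, and in the second and total periods below it in 9 of 9.

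Across the 27 arrays the probes whose levels ran most like DHTKD1 were those for CHRM3, a muscarinic acetylcholine receptor (Pearson r = 0.99), AJUBA, a LIM-domain protein of cell junctions (0.988), TLR2, a receptor for bacterial lipoproteins (0.988), TIGD5 (0.986) and TOX2, an HMG-box protein (0.985). They were the 5 highest of 10164 probes searched, and after removing the stage means their r with DHTKD1 was 0.851 to 0.890. Their changes were smaller than those of DHTKD1, at 0.84 to 1.56 in the first period and −2.99 to −1.61 in the second. Of the other subunits, PDHA1 (r = 0.83) and DBT (0.79) ran with DHTKD1, and OGDH (−0.83), DLST (−0.86), BCKDHB (−0.75), DLD (−0.62) and PDHB (−0.60) against it, with DLAT (−0.25) and BCKDHA (−0.10) near 0. After removing the stage means PDHA1 (0.79) and DBT (0.76) were still the closest of the subunits, and OGDH was at 0.23. The arrays come from 9 cattle sampled at 3 stages and share slides and the scaling by the array median, so these values are a description.

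Of 53 other genes of these pathways, 48 were on the array, and PDHX, PDP2, SUGCT, MCCC2 and HIBCH were not analysed here. In the first period 11 of the 48 were called higher and 18 lower, beside 45.3% and 21.3% of all probes, with a median change of −0.15, and in the second 25 higher and 10 lower, beside 27% and 44.6%, with a median of 0.53. The probes for 5 of the 11 called higher in the first period (OGDHL, MRPS36, PDHA2, PDP1 and HSD17B10) were not well above background on any array, and no fold is given for them. Among the 30 genes measured well above background on every early and middle array, 2 were higher and 17 lower in the first period, beside 35% and 26.9% of all 6811 such probes. Of 30 measured in this way at the middle and late stages, 21 were higher and 1 lower in the second period, beside 37.8% and 30.4% of 6797.

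The lysine and tryptophan pathway in which DHTKD1 acts had 8 genes on the array, of which 0 were called higher and 5 lower in the first period (45.3% and 21.3% of all probes), and 5 higher and 0 lower in the second (27% and 44.6%). The 3 called in neither period were PIPOX, AASS (−0.01 in the first period, adjusted P = 0.97) and ALDH7A1 (0.26, adjusted P = 0.0522). AADAT, the aminotransferase that makes 2-oxoadipate, the substrate of DHTKD1, changed by −0.77 (SE 0.17, adjusted P = 7.33e-04) in the first period and 1.46 (SE 0.17, adjusted P = 6.66e-07) in the second. GCDH, which takes the glutaryl-CoA that DHTKD1 makes, changed by −0.98 (SE 0.14, adjusted P = 1.1e-05) and 0.52 (SE 0.14, adjusted P = 0.0025). ECHS1, a hydratase of short-chain enoyl-CoA, had the largest first-period fall of the named genes, −2.32 (SE 0.12, adjusted P = 1.58e-10), and changed by 1.96 (SE 0.12, adjusted P = 2.48e-10) in the second. In these periods AADAT and GCDH, the enzymes next to DHTKD1 on either side, thus had the opposite sign to it, whereas in the total period GCDH was lower (−0.46, adjusted P = 0.0245), as DHTKD1 was, and AADAT higher (0.69). The first-period call of AADAT (−0.58, adjusted P = 0.0741) and the second-period call of GCDH (0.36, adjusted P = 0.138) were lost with slide as a random block, and with slide as a fixed block AADAT was at 0.08 in the first period. The second-period change of GCDH was 0.34 with 75th-percentile scaling and 0.30 with normexp, and its first-period change −0.57 with normexp.

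Of the 8 kinases and phosphatases that switch the complexes off and on, 3 were called higher and 1 lower in the first period, close to the shares over all probes (45.3% and 21.3%), and 5 higher and 2 lower in the second (27% and 44.6%). Of the 3 called higher, the PDP1 probe was well above background on no array and the PDK4 probe on 1 early and 0 middle arrays. PDK2, called higher in the second period, was well above background on 0 middle arrays. PDK1, PDK3 and BCKDK, well above background on every array, were not called higher in the first period. PDK3, a kinase that inactivates pyruvate dehydrogenase, changed by −1.78 (SE 0.19, adjusted P = 6.7e-07) in the first period and 2.45 (SE 0.19, adjusted P = 5.85e-09) in the second, in 9 of 9 cattle each way. PDPR, the regulatory subunit of the phosphatase, changed by 0.70 (SE 0.18, adjusted P = 0.00227) and −0.72 (SE 0.18, adjusted P = 0.00151), with only 5 of 9 middle arrays above background. Both of its calls were lost with quantile scaling (0.27, adjusted P = 0.43, and −0.16, adjusted P = 0.634), the second also with slide as a random block (adjusted P = 0.103), and with normexp the changes were 0.24 and −0.30. Of 7 genes that make and attach the lipoyl arm of the E2 subunits, 0 were higher and 3 lower in the first period (45.3% and 21.3% of all probes) and 5 higher and 0 lower in the second (27% and 44.6%). GLRX5 (−1.1), NFU1 (−0.95), both of which handle iron-sulfur clusters, and LIAS (−0.84), the lipoyl synthase that needs such clusters, were the lower ones, and they changed by 1.25, 1.56 and 1.01 in the second period.

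For the thiamine transporters SLC19A2 and SLC19A3 the log2 changes were −0.10 (adjusted P = 0.521) and 0.12 (adjusted P = 0.619) in the first period and 0.10 (adjusted P = 0.522) and 0.33 (adjusted P = 0.149) in the second. Of 3 genes of pyruvate supply, MPC1, a subunit of the mitochondrial pyruvate carrier that the array lists as BRP44L, changed by −1.14 (SE 0.17, adjusted P = 1.7e-05) and 1.17 (SE 0.17, adjusted P = 7.47e-06), and PC, pyruvate carboxylase, by 1.06 (SE 0.16, adjusted P = 2.59e-05) and −1.30 (SE 0.16, adjusted P = 1.54e-06). With normexp the changes of PC were 0.35 and −0.43, still called, and the second-period change of MPC1 was 1.83. The probe for MPC2, the other carrier subunit, was well above background on at most 3 arrays of a stage, and its fold is not quoted.

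Of 14 genes of branched-chain amino acid breakdown, 2 were called higher and 7 lower in the first period (45.3% and 21.3% of all probes), and 8 higher and 3 lower in the second (27% and 44.6%). ACAD8, the isobutyryl-CoA dehydrogenase of the valine path, changed by −1.64 (SE 0.18, adjusted P = 7.62e-07) and 1.71 (SE 0.18, adjusted P = 1.86e-07). HIBADH, the 3-hydroxyisobutyrate dehydrogenase of the same path, changed by −1.05 (SE 0.15, adjusted P = 1.57e-05) and 1.48 (SE 0.15, adjusted P = 1.46e-07). Of the 3 genes of glycine cleavage, whose enzyme also carries a lipoyl arm and uses DLD, 1 was called higher and 1 lower in the first period (45.3% and 21.3% of all probes). In the second 1 was higher and 0 lower (27% and 44.6%). AMT was the higher one in the first period (0.58, adjusted P = 0.00598), and GLDC was called in neither. GCSH, the lipoyl carrier of that enzyme, changed by −0.85 (SE 0.17, adjusted P = 3.22e-04) and 0.73 (SE 0.17, adjusted P = 8.89e-04), and by 0.36 with slide as a fixed block in the first period. Its second-period call was lost with slide as a random block (0.69, adjusted P = 0.0655). With slide as a fixed block ACAD8 was at −0.58 and HIBADH at −0.53 in the first period, and ECHS1 was the 1 pathway gene still called, where 1245 of all 15008 probes were. In the total period 10 of the 48 genes were called higher and 4 lower, beside 11.2% and 8.93% of all probes, and 8 and 2 of the 34 well above background on every early and late array, beside 15.6% and 7.76% of 9621. In the fit with slide as a random block 0 and 0 of the 48 were called, and 250 of all 15008 probes.

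**Figure D4:**
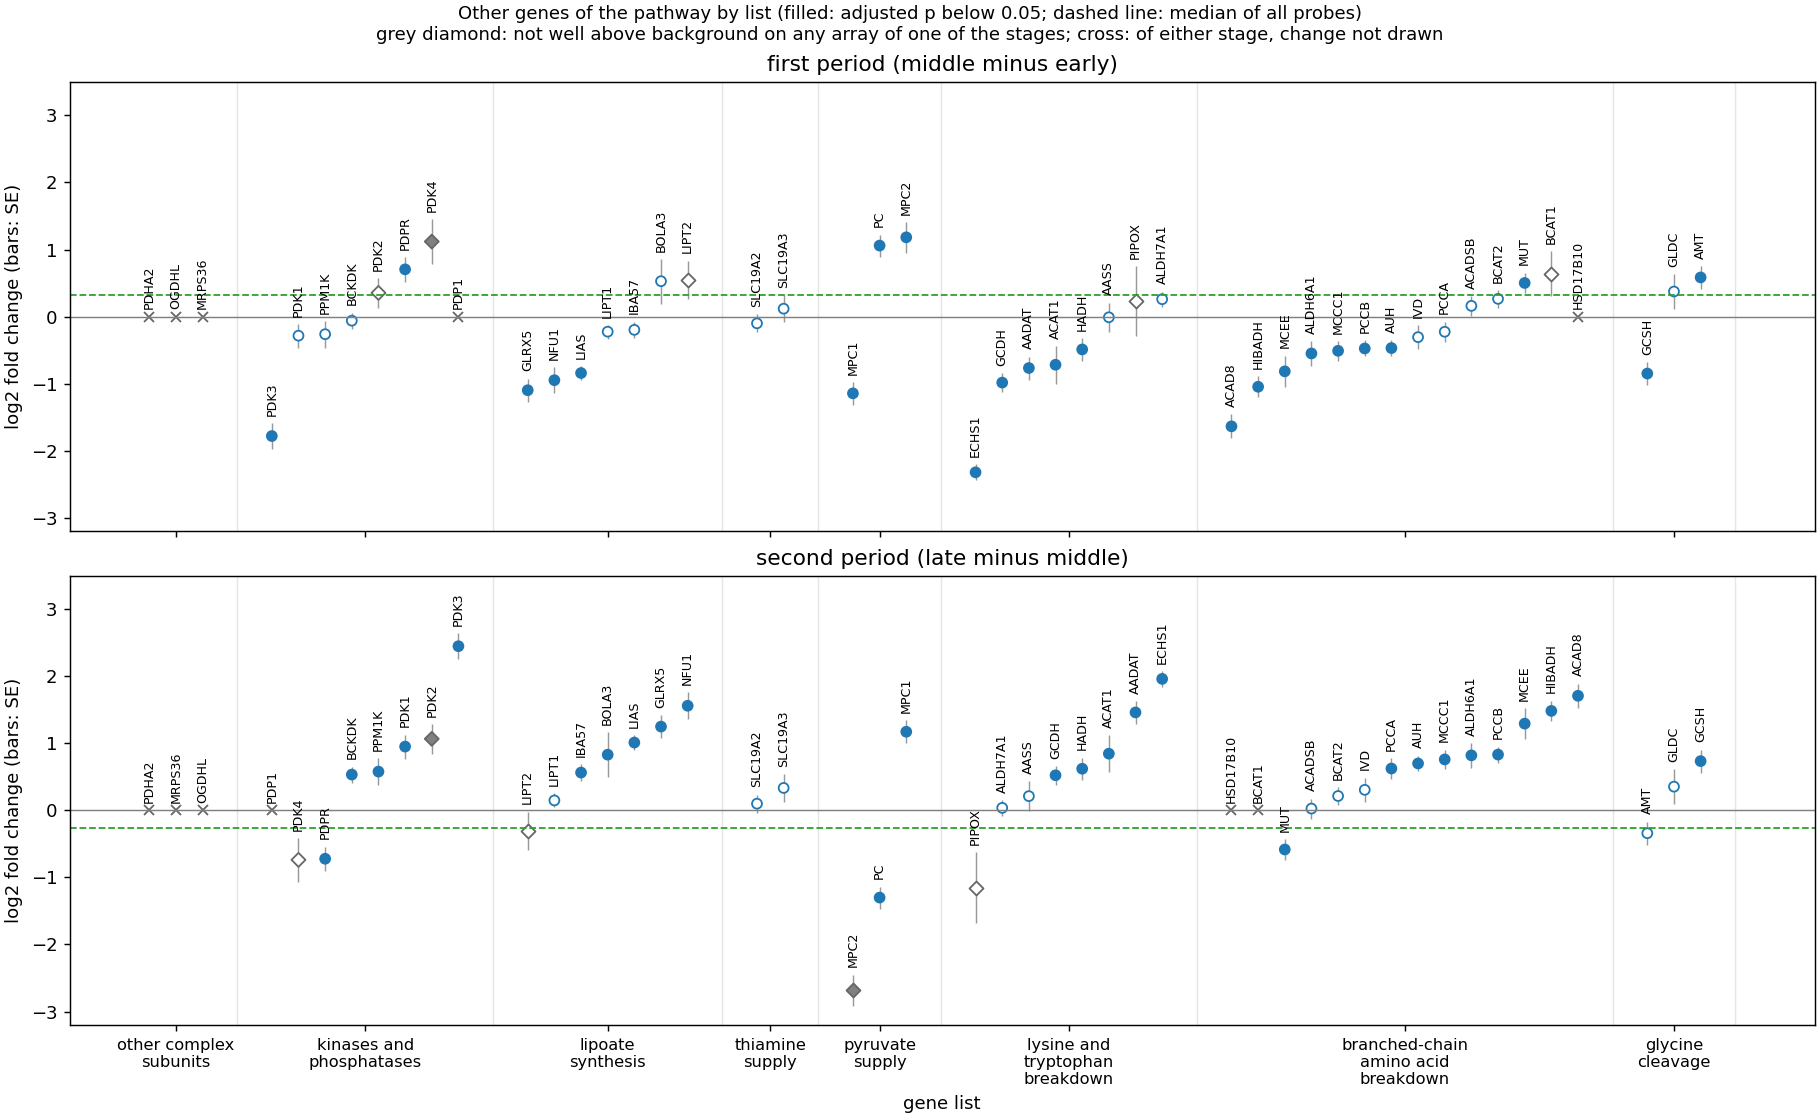
Log2 fold change with its SE of 48 other genes of the pathways by list, in the first period (top) and the second period (bottom); filled symbols have an adjusted P below 0.05, grey diamonds mark genes whose probe was not well above background on any array of 1 of the stages, crosses mark genes whose probe was not well above background on any array of either stage and whose change is not drawn, and the dashed line is the median change of all probes (0.32 and −0.27). In the lysine and tryptophan list the 5 filled genes lie below 0 in the first period and the 5 filled genes above 0 in the second.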

How the data were processed

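RNA of 27 RE biopsies was measured on a custom Agilent bovine array. The authors used cyanine 3 labeling and deposited the intensity values of Feature Extraction, a background-subtracted and detrended processed signal on a linear scale, with mean and local background intensities for normexp and 0 or 1 per spot for well above background, saturation and outliers, as deposited. The submitters' processing notes name version 9.5, and the files version 11.0.1.1. A second deposited table holds log2 values of 15068 probes, whose column medians are −3.09 to −2.61 and whose 75th percentile is 0 to within 0.00135 in each column. It matches the log2 processed signal centered near the array's 75th percentile, with an SD over probes of at most 0.0287, and was used as an alternative. The extraction protocol on the labels names other tissues, while the tissue label and the methods give RE.

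In R 4.3.3, spots of a probe were averaged with outlier spots left missing, and the array median was subtracted, as the methods divide by it. limma 3.58.1 was fitted over all 27 arrays with 3 stages and the animal as a block, with Benjamini-Hochberg adjustment over 15008 probes and calls at an adjusted P below 0.05. The number of arrays limits the precision. The stages are paired because the same animals were biopsied: deviations from the stage means correlated at 0.158 on average within an animal (−0.151 to 0.461, above 0 in 24 of 27 pairs) and at −0.02 between animals. Single biopsies of 9 animals are the replicates. Coordinates are 1-based as in the probe annotation. The accessions of 10 of 10 probes matched the symbols of the RefSeq table.

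The members, gene lists and tests were chosen with earlier results of these data known, and 3 genes of the lists are not reported here. Named were all members, per list at most 3 genes called in both the first and the second period with the largest first-period change, and the 5 probes most correlated with DHTKD1 among those above background on every array of at least 1 stage. Alternatives covered scaling (75th percentile, median of bright probes, quantile), normexp with an offset of 50, dim probes, outlier spots, the log2 table, the block, slide (statmod 1.5.0), the methods' test, 2 stages and each animal left out. The fit on the first scan day alone was added after seeing the data. The fit was checked on simulated data.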

Additional observations from a re-analysis of the deposited data

Results flagged for a closer look

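Of 30 sets of 9 levels (10 subunits at 3 stages), 4 held a value whose gap to its neighbor was large against the range of the set by Dixon's criterion, a criterion that chance alone meets in some sets. Of these, 3 came from animal 4 at the middle stage, the dimmest array: DHTKD1 at 7.11 (gap of 0.516 of the range), DLD at 1.80 (0.677) and BCKDHB at 4.02 (0.596). The other was DHTKD1 in animal 1 at the early stage, at 4.29 (0.526). Results without animal 4 stand beside each of these subunits above.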

How the results depend on the processing

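The rise of DHTKD1 in the first period kept its direction under 23 of 23 alternatives (1.27 to 1.89), as did its falls in the second (−3.98 to −2.71, 20 of 20) and total periods (−2.11 to −1.44, 20 of 20). Normexp gave the lowest sizes, −2.71, −1.44 and, against the other subunits in the total period, −1.57. Without the replicate block, 2 subunits were called higher and 5 lower in the first period, 5 and 2 in the second and 0 in the total period, and the block changed none of these counts. The counts changed most in the settings that took slide into account. The fixed block also raised the median SE over probes, from 0.188 to 0.67, and the cause of the lost calls was not tested. With slide as a fixed block (first period only, since it could not be fitted for the late stage) 0 subunits were higher and 1 lower, and 0 and 1 of the other pathway genes; on the shared slide alone 0 and 0 of both. With slide as a random block 2 subunits and 10 pathway genes were lower in the first period, 3 subunits and 15 pathway genes higher in the second, and 0 and 0 pathway genes called in the total period. Of all 15008 probes that fit called 6833, 7512 and 250 in the 3 periods, and the main fit 9986, 10734 and 3019. The calls thus fell over the whole array. The methods' t-test called 3 subunits lower in the first period and 2 higher in the total period, and a fit of the 2 stages alone 1 higher in the total period. Of all probes the t-test called 8901 and 4526 in these periods, and the fit of 2 stages 4814 in the total period. Without dim probes, where fewer genes were tested, 6 pathway genes were higher in the first period, 4 lower in the second and 2 lower in the total period. Of the 10165 probes tested there, 6549, 6947 and 2757 were called in either direction. With quantile scaling 7 pathway genes were higher in the first period, where 7169 of all probes were called in either direction. In the total period 6 were higher with 75th-percentile or bright-probe scaling and with the series matrix values, 5 with quantile scaling, and 4 higher and 0 lower with normexp. Of all probes these settings called, in the same order, 2929, 2932, 2920, 2156 and 1194.

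Of 324 values of single subunits under these alternatives 267 kept their call and direction, 27 lost the call, 6 gained one and 24 turned, and of 348 values of 14 named pathway genes 315 kept both, 31 lost the call and 2 turned. The subunit values that turned lay between −0.12 and 0.062, except BCKDHA with normexp. With 75th-percentile scaling, the median of bright probes and the series matrix values, BCKDHA was at −0.12, −0.12 and −0.12 and DLAT at −0.073, −0.074 and −0.070 in the second period, and PDHB at −0.054, −0.066 and −0.051 and DBT at −0.036, −0.049 and −0.034 in the total period. With quantile scaling, BCKDHA was at −0.087 and DLAT at −0.030 in the second period and BCKDHA at −0.052 and PDHB at −0.10 in the total period. Without dim probes, BCKDHA was at −0.068 and DLAT at −0.022 in the second period and PDHB at −0.00081 in the total period. With normexp, BCKDHA was at −0.48 in the first period, and DLAT at 0.061 and DLD at 0.062 in the total period. In the fit with slide as a fixed block, DLAT was at 0.027, AADAT at 0.080 and GCSH at 0.36 in the first period, and with slide as a random block PDHA1 was at 0.038 in the total period.

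Leaving out each animal in turn, the counts of subunits were 2 higher and 4 to 5 lower in the first period, 5 higher and 2 lower in the second, and 0 to 1 higher in the total period, where the 1 was found without animal 4. For the pathway genes they were 11 to 13 and 16 to 21, 23 to 26 and 10 to 11, and 7 to 12 and 2 to 4 (2 without animal 2 or 3). DHTKD1 ranged over 1.61 to 1.89, −3.88 to −3.64 and −2.07 to −1.94. BCKDHA in the second period ranged from −0.0050 to 0.12, DBT in the total period from −0.026 to 0.14 and DLAT from −0.089 to 0.019. Signal over background limits the middle stage most.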
